A study of Homo sapiens with 8 samples.

Results

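The response to doxycycline (dox) that 2 U937 lines had in common was described from 8 of the 8 samples of the series, taken as 4 pairs. A pair is the dox library and the no-dox library of the same line and the same replicate number, and every difference is dox minus no dox. U937 is a human monocytic cell line. All 8 samples carried the SLC19A1-/- genotype. SLC19A1 encodes the reduced folate carrier, which also imports cyclic dinucleotides. One line held a tet-inducible, Flag-tagged SLC7A1 and the other a tet-inducible, Flag-tagged SLC7A2, both cationic amino acid transporters. Cells received 1 µg/mL dox for 24 h or none, with 2 libraries in each of the 4 groups. The labels do not say whether replicates were separate cultures or whether a line was 1 clone, so a p-value here measures variation between libraries that may be only technical. Both lines gained a transporter when they received dox, and no line without a construct received it. The drug and the transporters therefore cannot be told apart.

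Doxycycline is a tetracycline antibiotic that binds the bacterial ribosome and can also slow the related ribosome of mitochondria. Cells that meet mitochondrial stress, a shortage of amino acids or misfolded protein in the endoplasmic reticulum can phosphorylate the initiation factor eIF2, which lowers general translation and favours translation of the transcription factor ATF4. ATF4 then drives genes that make or import amino acids and that charge tRNA. Sterol synthesis genes answer to SREBP2 and glycolytic genes to HIF1, and both programmes are active in dividing myeloid cells.

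The induced constructs were read first, since they check the labels. CPM are counts relative to sequencing depth, and for the construct entries depth is the library total. Flag-tagged SLC7A1 stood at 0.279 and 0 CPM without dox and 845 and 367 CPM with dox in its own line, and 0 in the SLC7A2 line. Flag-tagged SLC7A2 had 0.563 and 9.65 CPM without dox and 264 and 4950 CPM with dox in its own line. Dox levels thus differed between the libraries of a line, most in the SLC7A2 line, where replicate 2 was the higher, while replicate 1 was the higher in the SLC7A1 line. SLC19A1 mRNA had 126 to 163 CPM without and 120 to 138 CPM with dox on the same scale (log2 -0.14 ± 0.08), and with no wild type here these counts do not check the knockout. All further CPM values are scaled by TMM, which corrects library totals for their composition.

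Libraries held 17309132 to 18441833 expected counts. Markers of the labelled cell type were present: 15 of 18 monocytic markers had a mean of at least 1 CPM, and their sum was 3040 to 3870 CPM without and 2820 to 3490 CPM with dox. Of 18 T and NK cell markers 12 were listed, with a sum of 335 to 612 CPM without and 359 to 563 CPM with dox, most of it CD4 (mean 474.6 CPM without dox), which monocytes also express, while CD3E was listed in no file. Of 10 B cell markers 7 were listed, at 21.7 to 27.1 and 22.3 to 28.4 CPM, most of it CD79A (mean 19.1 CPM without dox), and MS4A1 was not. Erythroid and megakaryocyte markers summed to 8.56 to 12.5 and 7.37 to 11.4 CPM, with HBA1 and HBB not listed. Epithelial markers summed to 3.71 to 7.85 CPM without and 2.94 to 5.92 CPM with dox. Fibroblast markers summed to 15 to 106 CPM without and 10.5 to 20.5 CPM with dox, and the highest sum was in 1 library, the SLC7A2 no-dox library numbered 2. There COL1A1 had 24.5 CPM against 1.39 to 4.90 CPM in the other 7. The part of these cells or their RNA in the results below was not tested. Counts without the pair that holds this library are given beside the main lists. On the first principal component (47.6% of the variance), both SLC7A2 libraries numbered 2 stood apart at 28.2 and 39.2, against -29.9 to -3.6 for the other 6. In bulk RNA, fewer cells of a type and less RNA per cell cannot be told apart.

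Of 11573 Entrez genes past a filter on low counts, 961 (8.3%) were higher with dox in all 4 pairs and 835 (7.22%) were lower in all 4, so 15.5% went the same way each time. Signs that fell at random would give shares not far below these, and larger ones in any 3 pairs. The 961 and 835 genes are therefore no count of genes that respond to dox. The shares of 8.3% and 7.22% serve as the background for every gene list below. The differences were small. Only 47 genes (0.406%) were at least 0.25 log2 higher in each pair and 38 (0.328%) at least 0.25 lower, and where the log2 CPM averaged 3 or more these counts were 9 and 4. The paired quasi-likelihood test of edgeR, with Benjamini-Hochberg adjustment over all 17503 entries, called 0 Entrez genes (0%; smallest adjusted p 0.702). At an unadjusted p under 0.05 it had 358 genes higher (3.09%) and 279 lower (2.41%). Paired DESeq2 called 36 genes higher (0.311%) and 35 lower (0.302%), and all 71 went the same way in all 4 pairs. DESeq2 without the pairs in the model called 0, as did limma-trend with them. An adjusted p below is from paired DESeq2 unless edgeR is named, and a fold change is the fitted log2 value of edgeR. Its SE comes from that fit to 4 pairs, which shares information across genes, and is not the scatter of the pair differences. Under TPM, which relates counts to gene length and to the sum over genes, the split of same-way genes was 1264 higher and 552 lower (69.6% higher) in place of 53.5% higher, with the median of all genes moved from 0.008 to 0.042 log2.

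The 4 pairs differed in how far their genes spread. Where the log2 CPM averaged 5 or more the SD of the differences was 0.187 and 0.146 in the SLC7A1 pairs numbered 1 and 2, and 0.11 and 0.223 in the SLC7A2 pairs. Over these 4934 genes, the differences of SLC7A1 pair 1 and SLC7A2 pair 2 had a Pearson r of 0.508, while SLC7A1 pair 2 and SLC7A2 pair 2 had -0.281. Both pairs of the SLC7A1 line had 0.073 and both of the SLC7A2 line 0.066. These values are across genes, which are not independent replicates, and the pairs share neither dox nor no-dox libraries. Same-way genes were found at every level, with 14.3% of the genes under a mean log2 CPM of 1 and 16% of those at 7 or more.

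**Figure D1:**
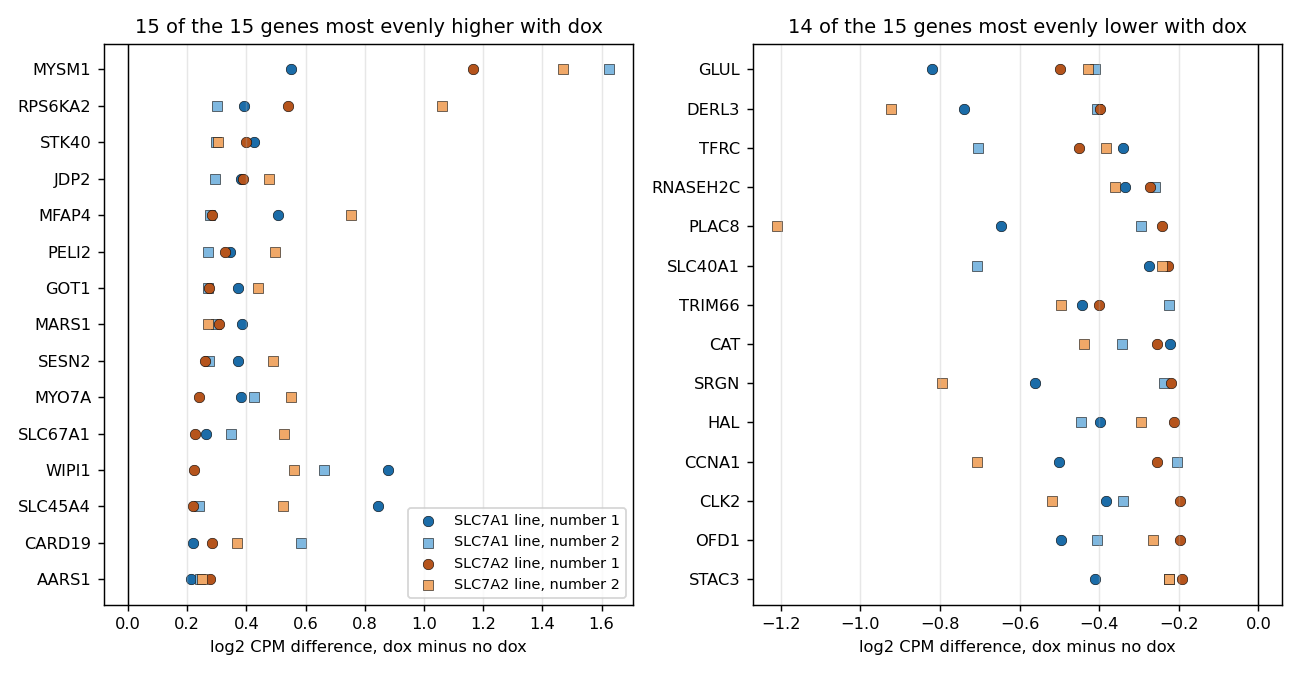
Difference in log2 CPM, dox minus no dox, on the horizontal axis for the 15 genes most evenly higher (left) and for 14 of the 15 most evenly lower (right), each point 1 pair. Genes are ordered by the smallest of their 4 differences, from MYSM1 (0.55) to AARS1 (0.21) and from GLUL (-0.41) to STAC3 (-0.19).

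Of the lists with at least 10 tested members, ATF4 targets had the highest share on the higher side. Of 34 measured members, 18 (52.9%) were higher in all 4 pairs, against 8.3% of all genes, and 1 (2.9%), KLHL24, was lower. The median of the list was 0.18 log2 against 0.008 over all genes, with pair medians of 0.23, 0.15, 0.13 and 0.30 in the order SLC7A1 pairs 1 and 2, SLC7A2 pairs 1 and 2. DESeq2 called 6 of them: PSAT1, JDP2, SESN2, GOT1, PCK2 and PHGDH. In the 3 pairs other than SLC7A1 pair 2, 24 of 34 (70.6%) were higher against 17.6% of all genes, and in those other than SLC7A2 pair 2, 22 (64.7%) against 15.7%. The mRNA of ATF4 itself had mean levels of 585 CPM without and 626 CPM with dox, higher in 4 of 4 pairs by 0.02 to 0.27 log2 (adjusted p 0.759).

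Enzymes that make serine are on the list of ATF4 targets, which names genes and does not measure ATF4 activity. PSAT1, the aminotransferase of serine synthesis, had 184 and 166 CPM without dox in the SLC7A1 line, 153 and 173 CPM in the SLC7A2 line, and 266, 183, 192 and 296 CPM in the same order with dox. Each dox library was above its partner, although the dox level of SLC7A1 pair 2 lay within the range of the no-dox libraries. Its log2 change was 0.45 ± 0.11 (SE, n = 4 pairs; DESeq2 adjusted p 0.00228), and the mean of 3 pairs ran from 0.34 to 0.55 as each pair was left out. PHGDH, the first enzyme of the pathway, had means of 821 and 921 CPM (log2 0.17 ± 0.05, DESeq2 adjusted p 0.0294). PSPH, the last enzyme, was higher by 0.12 to 0.37 in the 4 pairs, short of the threshold (DESeq2 adjusted p 0.219). Of 15 serine and one-carbon enzymes 4 (26.7%) were higher in all pairs and 1 (6.7%) lower. The fourth higher member was MTHFD2 of mitochondrial folate metabolism, from a mean of 137 to 170 CPM (DESeq2 adjusted p 0.0623).

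Regulators and sensors on the ATF4 list were among the most even genes. JDP2, a bZIP repressor, had 54.1 and 41.4 CPM without dox in the SLC7A1 line, 45.6 and 41.2 CPM in the SLC7A2 line, and 70.4, 50.8, 59.8 and 57.3 CPM in the same order with dox. Its differences of 0.38, 0.29, 0.39 and 0.48 log2 were among the narrowest (DESeq2 adjusted p 2.22e-05, edgeR adjusted p 0.702). SESN2, a sestrin that senses leucine and restrains mTORC1, had 46.5, 23.2, 22.5 and 23.4 CPM without and 60.2, 28.0, 26.9 and 32.9 CPM with dox. SLC7A1 library 1 was the highest of its arm both times, so the arms overlap while every pair went up the same way. Its log2 change was 0.35 ± 0.07 (SE, n = 4 pairs; DESeq2 adjusted p 0.0146). ASNS, asparagine synthetase, was higher by 0.25, 0.21, 0.20 and 0.88 log2, short of the threshold (DESeq2 adjusted p 0.196). GOT1, the cytosolic aspartate aminotransferase, was higher by 0.27 to 0.44 in the 4 pairs (DESeq2 adjusted p 0.0422), and the mitochondrial PEP carboxykinase PCK2 by 0.15 to 0.34 (DESeq2 adjusted p 0.00466). CHAC1, CEBPB, CEBPG, ATF5 and DDIT3 were also higher in 4 of 4 pairs, with mean pair differences of 0.15 to 0.26 and none called. TRIB3 and ATF3, which are often read as markers of ATF4 activity, were higher in 3 of 4 pairs, with means of 0.15 and 0.03.

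Cytosolic aminoacyl-tRNA synthetases, which load amino acids onto tRNA, divided into those that were higher and those that stayed near 0. Of all 20, 9 (45.0%) were higher in all pairs and 0 lower, and DESeq2 called 5: MARS1, GARS1, AARS1, CARS1 and WARS1. MARS1, for methionine, had 302 and 248 CPM without dox in the SLC7A1 line, 275 and 312 CPM in the SLC7A2 line, and 394, 304, 341 and 376 CPM in the same order with dox. The 4 differences lay between 0.27 and 0.38 log2, and MARS1 had the smallest DESeq2 adjusted p of all Entrez genes, 8.54e-09 (log2 0.32 ± 0.05, edgeR adjusted p 0.702). AARS1, for alanine, was higher by 0.21, 0.24, 0.28 and 0.25 log2 from a mean of 269.7 to 319.6 CPM (DESeq2 adjusted p 3.45e-06). GARS1, for glycine, went from 358 to 428 CPM (0.26 ± 0.05, DESeq2 adjusted p 1.52e-05), and CARS1, for cysteine, from 111.5 to 134.5 CPM (0.27 ± 0.06, DESeq2 adjusted p 0.00372). SARS1, TARS1, IARS1 and YARS1 were higher in 4 of 4 pairs without a call. Without SLC7A2 pair 2, 10 of the 20 were higher in the other 3, against 15.7% of all genes. Mean differences below 0 included those of QARS1 (-0.10), FARSA (-0.10), RARS1 (-0.08), HARS1 (-0.05) and KARS1 (-0.02). Of the 17 mitochondrial tRNA synthetases 2 (11.8%), MARS2 and LARS2, were higher in all pairs, by at most 0.12 log2.

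ATF4 binds DNA together with C/EBP proteins at a composite element, and its core letters were looked for in the promoters. RefSeq promoter windows (GRCh38.p14, 250 bases before to 50 after the annotated start) were matched for 9564 of the genes. The core TGATGNAA, searched on both strands, was in 1.71% of all windows, in 2.91% (23 of 791) of those of genes higher in all 4 pairs and in 1.07% (7 of 657) of those lower. Among genes at least 0.1 log2 higher in each pair, 6.09% (12 of 197) held it, a size limit set after seeing the data. The 12 include AARS1, CARS1, MARS1, TARS1, ASNS, CHAC1 and GOT1 of the 2 lists named next, so this share is not separate from theirs. The core was in 6 of 29 windows of ATF4 targets (20.7%) and 6 of 16 of cytosolic tRNA synthetases (37.5%), and NARS1 counts in both. Of these 11 genes 9 were higher in all 4 pairs. Both lists already had large shares of higher members (52.9% and 45.0%) and were chosen with earlier results known. This count is therefore no test of the motif. Counted from the motif, 23 of 164 windows that hold the core (14%) belonged to genes higher in all pairs and 7 (4.27%) to genes lower. The 23 include the 9 list members above. The median difference of the 164 genes was 0.007 log2, against 0.008 over all genes. Searched on the gene strand alone, the core was in 10.3% of the ATF4 list and 6.25% of the tRNA synthetases, against 0.847% of all windows. A match says only that these letters are in the window. The stretches below are from RefSeq, 5′ to 3′ on the strand of the gene, with the core in capitals, shown because they are members of the lists described here or, for SLC7A1, the gene of a construct (the core reads TTGCATCA where it lies on the other strand). They are AARS1 at chr16:70289646-70289733 (minus), MARS1 at chr12:57488024-57488092 (plus), CARS1 at chr11:3057399-3057465 (minus), GOT1 at chr10:99430775-99430862 (minus), ASNS at chr7:97872429-97872516 (minus) and SLC7A1 at chr13:29595664-29595721 (minus). HERPUD1 at chr16:56931926-56932013 (plus) holds the same letters as MARS1 and was lower in 4 of 4 pairs.
AARS1: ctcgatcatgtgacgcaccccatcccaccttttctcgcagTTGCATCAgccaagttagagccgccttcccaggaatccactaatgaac
MARS1: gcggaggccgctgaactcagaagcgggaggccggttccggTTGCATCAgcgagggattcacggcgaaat
CARS1: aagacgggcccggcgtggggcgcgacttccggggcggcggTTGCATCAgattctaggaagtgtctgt
GOT1: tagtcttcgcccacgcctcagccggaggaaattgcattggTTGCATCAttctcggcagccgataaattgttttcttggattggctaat
ASNS: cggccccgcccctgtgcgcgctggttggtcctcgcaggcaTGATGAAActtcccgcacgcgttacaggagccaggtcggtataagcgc
SLC7A1: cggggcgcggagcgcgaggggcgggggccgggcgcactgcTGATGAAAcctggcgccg
HERPUD1: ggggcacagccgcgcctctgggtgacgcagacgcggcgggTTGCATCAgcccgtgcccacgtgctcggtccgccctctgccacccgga

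**Figure D2:**
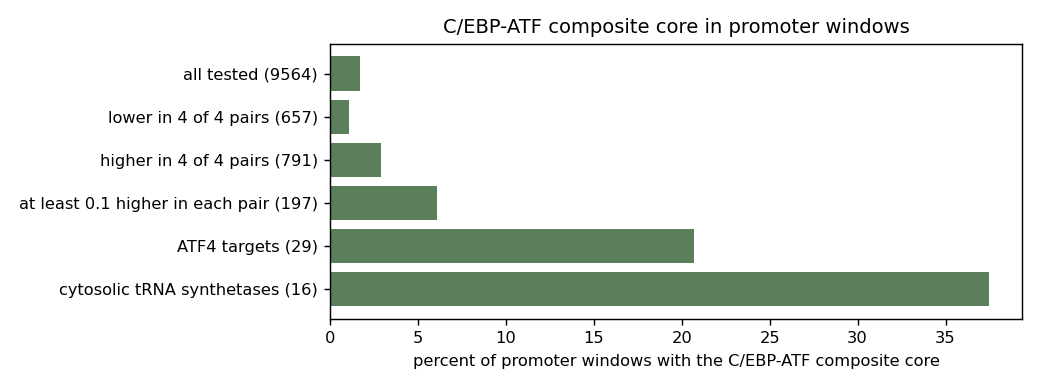
Percent of promoter windows that hold the C/EBP-ATF composite core on the horizontal axis, with the number of windows in brackets. The share runs from 1.07% of genes lower in all pairs and 1.71% of all genes to 20.7% of the ATF4 list and 37.5% of the tRNA synthetases.

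In these stretches the core began 4 bases before the annotated start of MARS1 and 2 before that of CARS1, and 187, 198 and 68 bases before those of AARS1, GOT1 and ASNS. The letters of SLC7A1 began at the eighth base of the gene. Endogenous SLC7A1 had 76.0 and 73.3 CPM without dox in the SLC7A1 line, 60.3 and 75.3 CPM in the SLC7A2 line, and 132, 97.1, 65.8 and 94.5 CPM in the same order with dox. Its log2 change was 0.42 ± 0.11 (DESeq2 adjusted p 0.0242), and in the SLC7A1 line reads of the construct may count here. In the SLC7A2 line, which lacks that construct, the pair differences were 0.13 and 0.33. Of 19 amino acid transporters 4 (21.1%) were higher in all pairs: SLC7A11, the cystine importer, SLC7A5 and SLC3A2, which form a leucine carrier, and SLC1A5 for glutamine. Their mean differences were 0.42, 0.17, 0.16 and 0.13, none called, and SLC38A5 (5.3% of the list) was lower.

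Other genes on the higher side belong to no list fixed here. MYSM1, a histone H2A deubiquitinase, had the largest even difference, with 8.57, 3.70, 4.62 and 6.15 CPM without dox and 12.6, 11.7, 10.5 and 17.2 CPM with dox. All 4 dox libraries lay above all 4 others (log2 1.21 ± 0.20, DESeq2 adjusted p 9.08e-05). STK40, a kinase-like protein, was higher by 0.43, 0.30, 0.40 and 0.31 log2 from a mean of 57.0 to 73.2 CPM (DESeq2 adjusted p 2.22e-05). CERS5, a ceramide synthase, had a mean of 36.1 CPM without and 62.4 CPM with dox (DESeq2 adjusted p 0.00124), but its differences of 1.02, 0.74, 0.09 and 1.09 were uneven. RPS6KA2, a ribosomal S6 kinase, was higher by 0.30 to 1.06 (DESeq2 adjusted p 0.0499), the unconventional myosin MYO7A by 0.24 to 0.55 (0.0459) and the matrix protein MFAP4 by 0.28 to 0.75 (0.0028). PELI2, a ubiquitin ligase of Toll-like receptor signalling, WIPI1 of autophagosome formation, SLC45A4, SLC67A1 and CARD19 were as even but not called (DESeq2 adjusted p 0.144 to 0.568). The last gene within the 15 on this side, AARS1, and the next one, BAIAP2L1, had a smallest difference of 0.214 each.

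**Figure D3:**
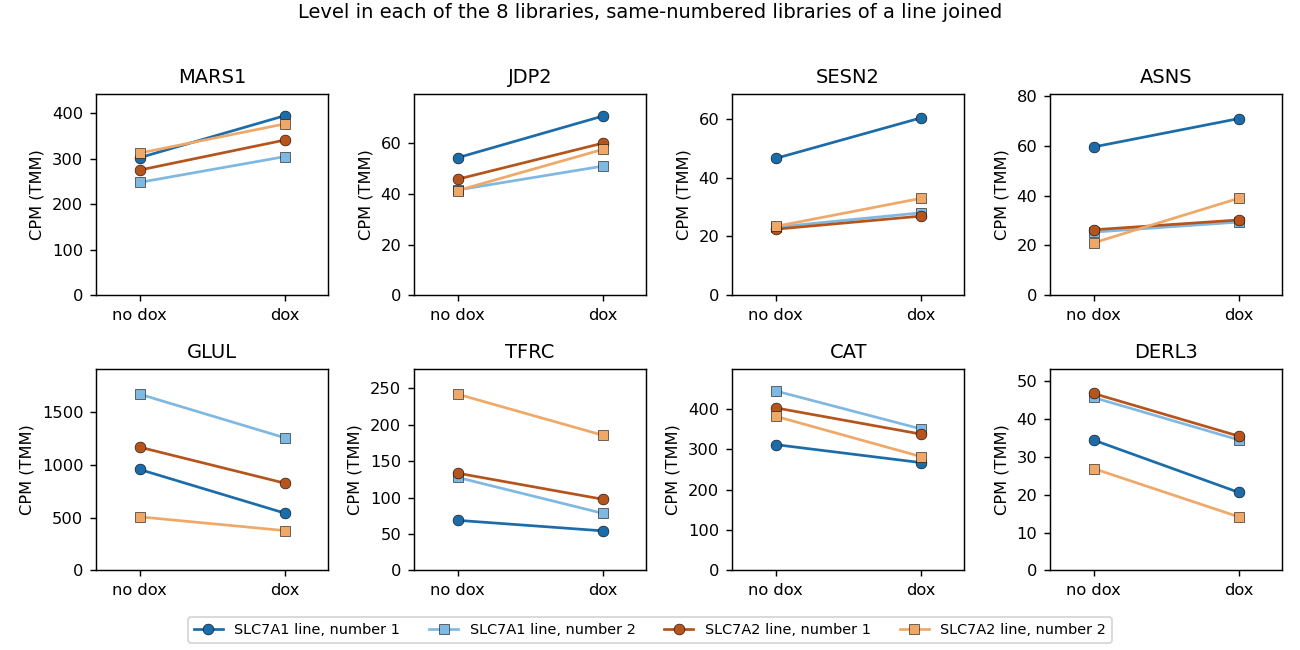
TMM-scaled CPM in each of the 8 libraries for 8 genes, with a line from the no-dox to the dox library of each pair. The lines of MARS1, JDP2, SESN2 and ASNS go up in all 4 pairs and those of GLUL, TFRC, CAT and DERL3 go down, while levels of the 2 arms overlap in each of them.

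GLUL, glutamine synthetase, was the most even gene on the lower side. It had 955 and 1667 CPM without dox in the SLC7A1 line, 1166 and 507 CPM in the SLC7A2 line, and 542, 1254, 825 and 376 CPM in the same order with dox. Levels differed several-fold between libraries of 1 arm, but the pair differences all lay below 0, at -0.82, -0.41, -0.50 and -0.43 log2. Its log2 change was -0.54 ± 0.08 (SE, n = 4 pairs; DESeq2 adjusted p 2.15e-08, edgeR adjusted p 0.702). GLUL lies on chromosome 1 at 182378098 to 182391790 in GRCh38.p14 and overlaps no other annotated gene. Of 24 enzymes of glutamine, arginine and polyamine metabolism 5 (20.8%) were higher in all pairs, among them ASNS, GOT1, ODC1 and AZIN1, and 2 (8.3%) were lower, GLUL and PYCR3.

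TFRC, the transferrin receptor that takes up iron, had 68.7 and 128 CPM without dox in the SLC7A1 line, 133 and 242 CPM in the SLC7A2 line, and 54.3, 78.3, 97.6 and 185 CPM in the same order with dox. Each dox library was below its partner (log2 -0.47 ± 0.07, DESeq2 adjusted p 3.38e-07). Ferroportin, the iron exporter encoded by SLC40A1, was lower by -0.23 to -0.71, short of the threshold (DESeq2 adjusted p 0.545). Of 14 iron-handling genes 4 (28.6%) were lower in all pairs, with the mitochondrial importer SLC25A37 and the ferritinophagy receptor NCOA4 beside these, and 0 were higher. The list median was -0.04, and 0.004 under TPM. CAT, catalase, had 312, 445, 403 and 382 CPM without and 267, 351, 338 and 282 CPM with dox, a change of -0.31 ± 0.05 log2 (DESeq2 adjusted p 1.52e-05). Among 17 antioxidant enzymes it was the only one lower in all pairs (5.9%), and 1 (5.9%) was higher, PRDX2 at a mean under 1 CPM in both arms. Without SLC7A1 pair 2, 9 of the 17 (52.9%) were lower and 1 (5.88%) higher, against 18.2% and 17.6% of all genes.

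Further even genes on the lower side had unlike functions. RNASEH2C, a subunit of RNase H2, was lower by -0.26 to -0.36 (DESeq2 adjusted p 0.0302), and CLK2, a kinase of splicing factors, by -0.20 to -0.52 (0.00731). HAL, histidine ammonia-lyase, was lower by -0.21 to -0.45 (0.0475), and cyclin A1 (CCNA1) by -0.20 to -0.71 (0.0136). TRIM66, the centriole protein OFD1 and STAC3 were lower in 4 of 4 pairs and not called (DESeq2 adjusted p 0.0578 to 0.312). CXCR4, the chemokine receptor, had a mean of 251.1 CPM without and 200.6 CPM with dox (DESeq2 adjusted p 0.00146). LOC102724594 was also called (DESeq2 adjusted p 0.00155), but it is a near-identical copy of another locus, so its count is uncertain. The smallest difference was -0.193 for STAC3, the last of these 15, and -0.19 for ELFN1, the next one. RNASEH2C overlaps KAT5, TRIM66 overlaps RPL27A, JDP2 its antisense gene, MFAP4 MAPK7, WIPI1 ARSG, IFIT3 LIPA, ATF5 NUP62, and MARS1 DDIT3, so reads of these neighbours could be shared.

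Cholesterol synthesis genes were lower as a group, most plainly in 3 of the 4 pairs. Of 24 members 10 (41.7%) were lower in all pairs against 7.22% of all genes, 0 were higher, and all 24 had a mean difference below 0. DESeq2 called INSIG1, DHCR7 and FDPS. INSIG1, which holds back SREBP processing and is itself an SREBP target, had 87.3, 173, 176 and 173 CPM without and 55.3, 118, 136 and 158 CPM with dox (log2 -0.42 ± 0.09, DESeq2 adjusted p 0.00155). The pair medians were -0.33, -0.19, -0.18 and -0.01. SLC7A2 pair 2 differed from the other 3: HMGCS1 there was 0.57 higher after -0.62, -0.66 and -0.44 in the others. Without that pair 20 of 24 members (83.3%) were lower in the remaining 3, against 13.6% of all genes. Of 14 fatty acid synthesis genes 2 (14.3%), FADS2 and FASN, were lower and 0 higher.

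Genes of the unfolded protein response list, among them chaperones of the endoplasmic reticulum (ER), were lower in 10 of 24 cases (41.7%) and higher in 1 (4.2%), DNAJB11. Their median was -0.08 (-0.03 under TPM), and 12 of the 24 were lower in the 3 pairs other than SLC7A2 pair 2, against 13.6% of all genes. HSP90B1, the ER form of HSP90, had 496, 767, 780 and 742 CPM without and 391, 663, 703 and 677 CPM with dox (log2 -0.21 ± 0.05, DESeq2 adjusted p 0.0264), the only one of the list to be called. BiP (HSPA5) had differences of -0.32, -0.12, -0.11 and -0.11 and calreticulin (CALR) of -0.59, -0.10, -0.07 and -0.62. DERL3, which helps to send misfolded proteins out of the ER and lies outside this list, was lower by -0.74, -0.41, -0.40 and -0.92 (DESeq2 adjusted p 0.000398), and it overlaps SMARCB1. Calreticulin and PDIA3 also count among the 4 of 17 genes of MHC class I loading (23.5%) that were lower, with HLA-E and HLA-B, while NLRC5 (5.9%) was higher. Of 25 heat shock genes, the cytosolic chaperones, 4 (16%) were higher, HSPA1A, HSPA1B, HSP90AA1 and TCP1, and 1 (4.0%) was lower, FKBP4.

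Among glycolysis and hypoxia genes 10 of 32 (31.2%) were lower and 1 (3.1%), PFKFB3, was higher. PFKFB4, a regulator of glycolytic flux, had 102, 145, 101 and 16.2 CPM without and 33.9, 106, 42.1 and 14.5 CPM with dox. Its differences ran from -0.16 to -1.59 and were not called (DESeq2 adjusted p 0.309). PGK1, from a mean of 737 to 636 CPM, was the only member called (DESeq2 adjusted p 0.0432). ENO1, ALDOA, GPI, PGAM1 and LDHA, all glycolytic enzymes, were lower in 4 of 4 pairs with mean differences of -0.14 to -0.22. The pair medians were -0.25, -0.08, -0.20 and -0.05, and without SLC7A2 pair 2 19 of 32 (59.4%) were lower in the 3 pairs left, against 13.6% of all genes.

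Granule proteins of immature myeloid cells had the highest share on the lower side. Of 15 measured members 9 (60%) were lower in all pairs and 0 higher, and all 15 had a mean difference below 0. The median was -0.29, with pair medians of -0.45, -0.10, -0.08 and -0.54, nearer to 0 in SLC7A1 pair 2 and SLC7A2 pair 1. Without SLC7A2 pair 2, 10 of the 15 were lower in the other 3, against 13.6% of all genes. LYZ, lysozyme, had 196, 173, 237 and 268 CPM without and 158, 149, 212 and 203 CPM with dox (log2 -0.27 ± 0.06, DESeq2 adjusted p 0.00207). SRGN, the proteoglycan that packs granule contents, went from a mean of 428 to 316 CPM (DESeq2 adjusted p 0.00308), and RNASE3 from 169 to 127 CPM (0.0264). MS4A3 was the fourth member called (0.0211). Neutrophil elastase (ELANE) was lower by -0.76, -0.13, -0.06 and -0.55 and PLAC8 by -0.65, -0.30, -0.24 and -1.21, neither called. CAMP, a granule protein gene outside this list, went the other way, higher in all 4 pairs by 0.02 to 0.51 log2. Of 21 genes of monocyte and macrophage maturation 1 (4.8%), the integrin ITGAM, was higher in all pairs and 1 (4.8%), FCN1, was lower. The differences of ITGAM were uneven, at 1.02, 0.14, 0.004 and 1.24. Of 17 monocytic markers tested 2 (11.8%), CEBPB and ITGB2, were higher and 3 (17.6%), ELANE, LYZ and FUT4, were lower.

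**Figure D4:**
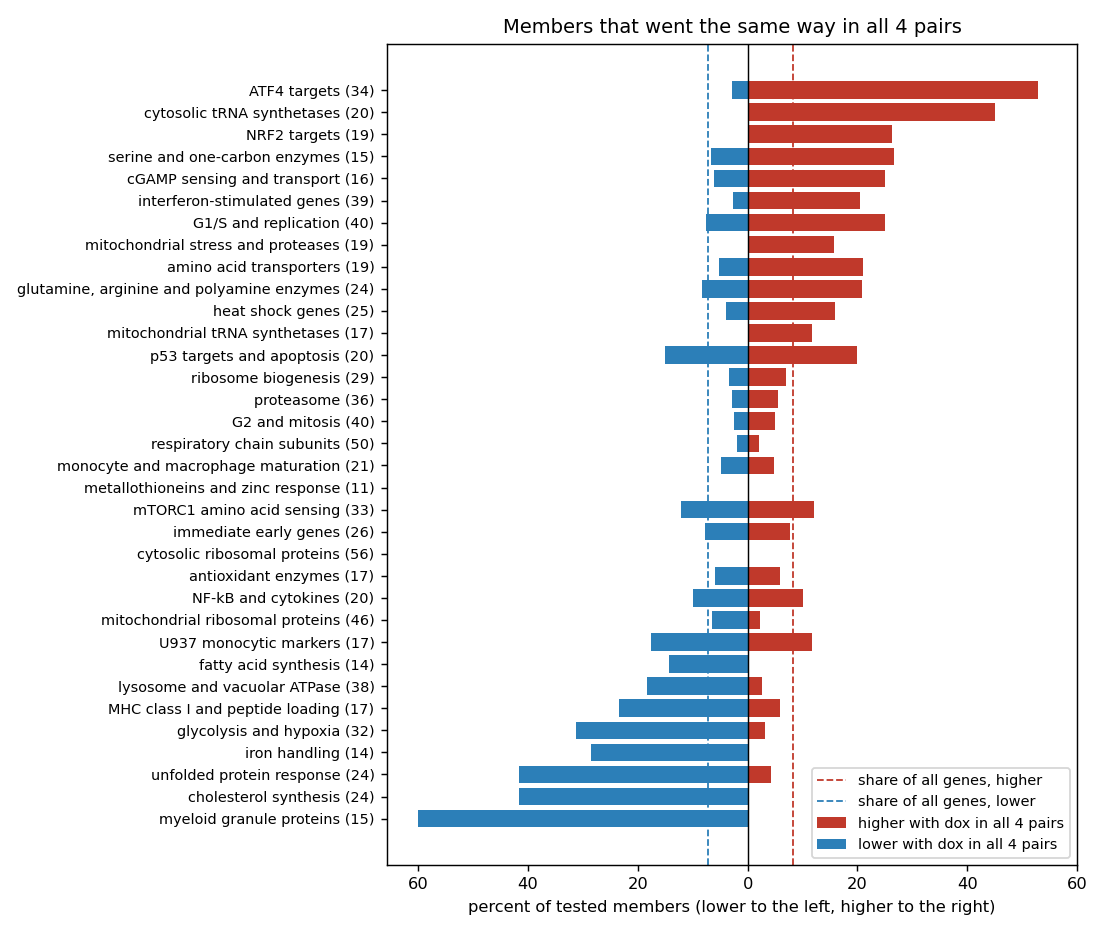
Share of each gene list that was higher (to the right) or lower (to the left) with dox in all 4 pairs, in percent of its tested members, whose number is in brackets. Dashed lines mark the 8.3% and 7.22% of all genes. ATF4 targets (52.9%) and cytosolic tRNA synthetases (45.0%) extend farthest to the right and myeloid granule proteins (60%) farthest to the left, among lists of at least 10 tested members.

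Defence and signalling lists held a few genes each. Of 39 interferon-stimulated genes 8 (20.5%) were higher in all pairs, among them OAS1, HERC6, SAMD9L and IFIT3, and 1 (2.6%), IFITM1, was lower. None was called. OAS1, which makes the activator of RNase L, had means of 1.81 CPM without and 3.09 CPM with dox. HERC6, SAMD9L and IFIT3 were also low, with means of 2.91, 2.54 and 3.01 CPM without and 3.76, 3.66 and 3.84 CPM with dox. The pair medians of 0.06, 0.09, 0.08 and 0.39 were highest in SLC7A2 pair 2. Without that pair 8 of 39 (20.5%) were higher in all remaining pairs, against 15.7% of all genes. Of 16 genes of cGAMP sensing and transport 4 (25%) were higher, the volume channel subunits LRRC8A and LRRC8B and the kinases TBK1 and IKBKE, and 1 (6.2%), the nuclease TREX1, was lower, none called. The differences were 0.007 to 0.115 for IKBKE, 0.025 to 0.195 for LRRC8A and 0.073 to 0.327 for TBK1. LRRC8B was higher by 0.24 to 0.61 at low means, 2.61 CPM without and 3.43 CPM with dox. Among 20 genes of NF-kB and cytokines 2 (10.0%) were higher, TNF and BCL3, and 2 (10.0%) lower, TNFAIP3 and NFKB2. TNF had low means, 0.84 CPM without and 1.58 CPM with dox. NRF2 targets of the oxidative stress response had 5 of 19 (26.3%) higher and 0 lower. PGD of the pentose phosphate pathway was called, with 360, 428, 515 and 604 CPM without and 438, 505, 550 and 738 CPM with dox (log2 0.23 ± 0.05, DESeq2 adjusted p 0.0063), and GCLC, NQO1 and SLC7A11 were not.

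Cell cycle genes were mixed. Of 40 genes of G1/S and replication 10 (25%) were higher, with cyclin D3 (CCND3) called (mean 144 to 183 CPM, DESeq2 adjusted p 0.0306), and 3 (7.5%) lower, MCM2, UNG and CCND2. Of 40 G2 and mitosis genes 2 (5.0%) were higher, CDC20 and PRC1, and 1 (2.5%) lower, CDC25C. The mean difference was above 0 for 36 of the 40. Without SLC7A1 pair 2, 12 (30.0%) were higher, against 17.6% of all genes. Without SLC7A1 pair 1 these shares were 5.0% and 11.3%. The pair medians of this list, 0.22, -0.02, -0.03 and 0.22, divided the pairs. Of 20 p53 targets 4 (20%) were higher and 3 (15%) lower, and CDKN1A, the cell cycle inhibitor p21, had differences of 1.41, 0.53, 0.05 and 1.24 (DESeq2 adjusted p 0.295). In the list for mTORC1 amino acid sensing 4 of 33 were higher and 4 lower (12.1% each), with SESN2 called.

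For the ribosome and mitochondria, few genes went the same way in all 4 pairs. Of 56 cytosolic ribosomal protein genes 0 were higher and 0 lower in all 4, and the pair medians were -0.18, 0.15, -0.05 and -0.18. SLC7A1 pair 2 was the exception: without it 47 of 56 (83.9%) were lower in the other 3, against 18.2% of all genes. Of 50 subunits of the respiratory chain 1 (2.0%), NDUFA9, was higher and 1 (2.0%), UQCRC2, lower, and without SLC7A1 pair 2 26 (52.0%) were lower. Mitochondrial ribosomal proteins had 1 of 46 (2.2%) higher and 3 (6.5%) lower, and without SLC7A1 pair 2 20 (43.5%) were lower. Of 19 genes of mitochondrial stress and proteases 3 (15.8%) were higher, ATF5, the chaperone HSPA9 and DELE1, which relays mitochondrial stress to eIF2 kinases, and 0 lower. Without SLC7A1 pair 2, 7 of the 19 (36.8%) were lower and 3 (15.8%) higher, against 18.2% and 17.6% of all genes. DELE1 was higher by 0.01 to 0.13 log2 in the 4 pairs. HSPA9 had differences of 0.08, 0.09, 0.09 and 0.06 and was not called (DESeq2 adjusted p 0.643). The mRNAs encoded by mitochondrial DNA are in none of the files used here.

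**Figure D5:**
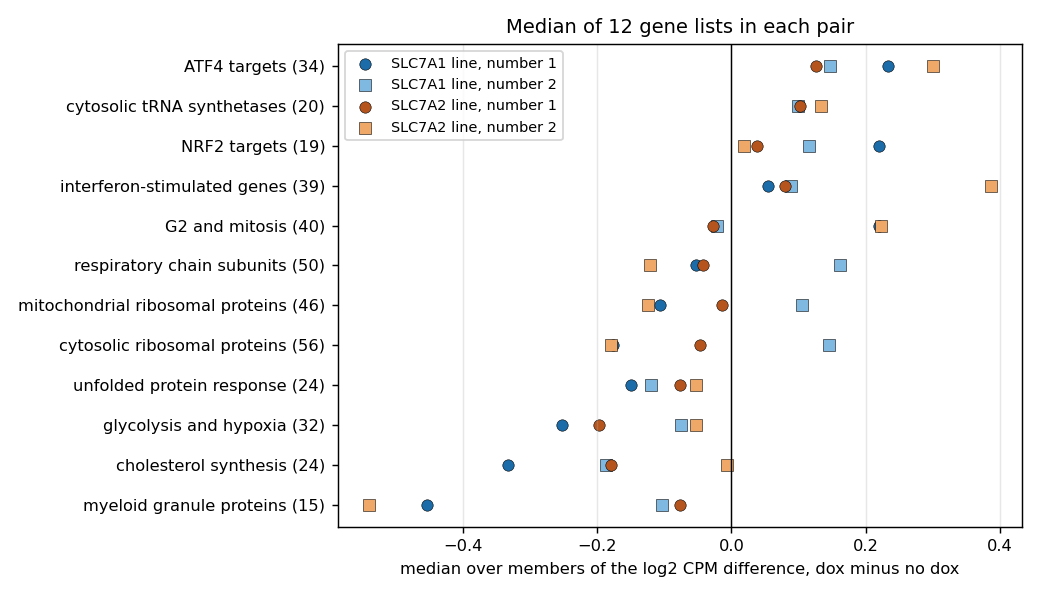
Median over the members of 12 gene lists of the log2 CPM difference, dox minus no dox, on the horizontal axis, each point 1 pair and the number of members in brackets. The 4 medians of the ATF4 list lie between 0.13 and 0.30, while those of the cytosolic ribosomal proteins lie between -0.18 and 0.15.

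The MTRNR2L genes, nuclear copies of the mitochondrial 16S ribosomal RNA, were a further group, singled out after their values were seen. MTRNR2L8 had 5714, 5232, 5341 and 3043 CPM without and 3828, 4659, 4293 and 2406 CPM with dox (log2 -0.35 ± 0.07, DESeq2 adjusted p 0.000398). MTRNR2L1 and MTRNR2L2 were lower in all pairs too (DESeq2 adjusted p 0.00207 and 0.0063), while 4 other members, MTRNR2L3, MTRNR2L6, MTRNR2L9 and MTRNR2L10, were higher in SLC7A1 pair 2. These loci are nearly identical to each other and to the mitochondrial gene, so how reads were divided among them is uncertain.

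No member of the remaining lists was called by DESeq2. Ribosome biogenesis had 2 of 29 higher (6.9%) and 1 lower (3.4%), the proteasome 2 of 36 (5.6%) and 1 (2.8%), and immediate early genes 2 of 26 in each direction (7.7%). Without SLC7A1 pair 2, 11 of the 29 (37.9%) and 13 of the 36 (36.1%) were lower, against 18.2% of all genes. Lysosome and vacuolar ATPase genes were lower in 7 of 38 cases (18.4%), among them NPC1, NEU1, HEXA and GLB1, and higher in 1 (2.6%). Metallothioneins and zinc-responsive genes had 0 of 11 either way, and replication-dependent histones 1 of 6 each way (16.7%). Of the lists for other cell types, fibroblast (7 tested), T and NK cell (3), epithelial (3) and erythroid (2) markers had 0 members the same way in all pairs, and B cell markers 1 of 4 each way (25%), CD79A higher and PAX5 lower.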

How the data were processed

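RNA was measured in 8 libraries by poly(A) selection and paired 150-base reads, per the labels. Each deposited file holds 1 library with an expected count per gene, a TPM value and other columns such as gene length, per the file headers. Per the submitters' processing notes, the build was hg38 and the tools, with no role or order, include RSEM 1.3.1, DESeq2 1.4.5, Bowtie2 2.3.4.3 and HISAT. Strand use in counting: not given in the sources used here. Files list 22653 entries: 15386 Entrez genes (15340 with a symbol), 7264 assembled XLOC loci and 3 construct entries. An entry missing from a file was taken as 0 (3 counts are 0.163 to 0.173 CPM, counting error only).

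Expected counts were rounded, filtered (filterByExpr, minimum count 10, total 15), scaled by TMM and fitted with edgeR 4.0.16 in R 4.3.3 on pair plus dox (3 residual degrees of freedom), with all entries in the fit and Entrez genes counted. DESeq2 1.42.0 and limma 3.58.1 were alternatives. The SE beside an edgeR value is its size divided by the root of F. Pair differences use log2 CPM with a prior count of 2. An exact sign-flip test of 4 pairs cannot go below 0.125, so none was used. Pairs come from the replicate numbers in the titles. Deviations of same-numbered libraries from their group means correlated at 0.395 (SLC7A1 line) and 0.506 (SLC7A2 line) over 11573 genes. The comparison and the 41 gene lists were chosen with earlier results of these data known, and several lists share members. Named genes were the constructs, SLC7A1, SLC19A1, any edgeR call, the 15 higher and 15 lower genes averaging 3 or more in log2 CPM whose weakest pair difference was largest, the 8 higher and 8 lower with the smallest paired DESeq2 adjusted p, and per list up to 4 same-way members. Further members were named to complete a count, after their values were seen. Some genes that the rule names are not reported here, but they stay in the counts. Other normalizations, prior counts, filters, TPM, unpaired fits and leaving out each pair were tried.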

Additional observations from a re-analysis of the deposited data

Results flagged for a closer look

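For 2 gene lists both pairs of a line lay on one side of 0 and both pairs of the other line on the opposite side. The median of the NF-kB and cytokine list was 0.07 and 0.06 in the SLC7A1 pairs and -0.05 and -0.02 in the SLC7A2 pairs, a difference of -0.098 log2 (SLC7A2 minus SLC7A1 line). That of the G1/S and replication list was 0.10 and 0.06 against -0.02 and -0.01, a difference of -0.09. Neither difference between lines was tested.

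Outside the Entrez genes, 34 assembled XLOC loci were called by paired DESeq2. They have no symbol here and enter no count above. By edgeR, XLOC_024383 was called (adjusted p 0.0062), with CPM values equal to those of the SLC7A1 construct entry in every library.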

How the results depend on the processing

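DESeq2 with the replicate block called 71 Entrez genes. With the same block edgeR and limma-trend called 0, and without the block DESeq2 and edgeR both called 0. Without the block edgeR had 93 genes at an unadjusted p under 0.05 and DESeq2 104, against 637, and with a pair left out the number ran from 226 to 1006 (226 without SLC7A1 pair 1, 1006 without SLC7A1 pair 2). With 3 pairs in place of 4, fewer agreements are needed, and 1312 to 2041 genes were higher, 1169 to 2108 lower, 106 to 196 at least 0.25 higher and 90 to 126 at least 0.25 lower in each. Under TPM 552 genes were lower in all pairs, and 14 and 12 were at least 0.25 higher and lower. With a CPM of at least 1 in all libraries these were 17 and 12, where the log2 CPM averaged 3 or more (chosen after seeing the data) 9 and 4, and with no filter 85 were lower. List medians moved by more than the SD of their pair medians as follows. Cytosolic tRNA synthetases had 0.101 with library totals, 0.115 with TPM and 0.084 to 0.106 with a pair left out, against 0.080. With TPM, iron handling had 0.004, the unfolded protein response -0.034, glutamine, arginine and polyamine enzymes 0.072, monocyte maturation 0.046 and MHC class I 0.030. With the CPM limit monocyte maturation had 0.043, T and NK cell markers 0.137 and B cell markers -0.045. With a pair left out, metallothioneins ran from -0.074 to 0.062, cGAMP genes from 0.059 to 0.113, NF-kB genes from -0.052 to 0.054, amino acid transporters from 0.001 to 0.127, monocyte maturation from 0.037 to 0.093, histones from -0.169 to 0.056 and B cell markers from -0.041 to 0.053. The cause was not tested. Searched on the strand of the gene alone, the composite core was in 6.25% of the windows of cytosolic tRNA synthetases, 10.3% of ATF4 targets, 2.03% of genes at least 0.1 higher in each pair, 1.14% of genes higher in all pairs and 0.847% of all. At 3 counts a gene has at most 0.173 CPM, and below a mean log2 CPM of 1 the pair differences had a mean SD of 0.985.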
